A study of Mus musculus with 6 samples.

Results

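The genes described here are 45 genes of mitosis, the spindle and the kinetochore, read in resting natural killer (NK) cells with and without the transcription factor Runx3. They were taken by name: every array probe set whose single gene symbol is 1 of the 45 names, without regard to its signal. All 45 were present, through 105 probe sets, among 18193 genes with a probe set of their own. RNA came from 3 Runx3-/- and 3 WT ICR mice, 6 weeks old, 1 mouse per array according to the design, with both sexes named in the labels. Cells were depleted of other lineages, sorted from spleen as DX5+ cells without activation, and measured on an Affymetrix mouse expression array. The genotype label gives the deletion for the whole animal and not for NK cells alone, and DX5 also marks basophils.

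A dividing cell condenses its chromosomes, builds a bipolar spindle and fastens each sister chromatid to spindle microtubules through the kinetochore, a protein assembly on the centromere. A checkpoint holds the anaphase-promoting complex (APC/C) inactive until all kinetochores are attached, after which the chromatids part and a contractile ring divides the cell. Most of these genes are silent in quiescent lymphocytes and are transcribed late in the cell cycle, so their RNA is commonly read as a mark of cycling cells, whereas resting splenic NK cells divide little.

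Most of the 45 genes were higher in Runx3-/- NK cells than in WT cells. At an unadjusted p under 0.05 with a difference of at least 1.5-fold, 32 of the 45 were higher and 0 were lower, whereas 4.89% of all 9545 tested genes were higher and 8.86% lower by the same criterion. The difference lay above 0 for 43 genes, and Bub3 and Racgap1 were the exceptions. Its median was 1.25 on the log2 scale, from -0.14 to 2.18, beside a median of -0.13 over all tested genes. After Benjamini-Hochberg adjustment over all tested genes only Nuf2, a microtubule-binding kinetochore subunit, passed at 5%, against 0.608% of tested genes in either direction and 0.283% in this one. More cycling cells and more mitotic RNA per cell cannot be told apart in RNA from a sorted population.

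The mean log2 signal of the 45 genes was 8.55, 8.44 and 9.01 on Runx3-/- arrays 1, 2 and 3, and 7.42, 8.13 and 6.84 on WT arrays 1, 2 and 3. The groups did not overlap, but the lowest Runx3-/- array lay only a little above WT array 2. The group means were 8.67 ± 0.30 (SD, n = 3) and 7.46 ± 0.65 (SD, n = 3), a difference of 1.20. Runx3-/- array 3 held the highest of the 6 values for 31 genes. WT array 2 was the highest WT array for 41 genes, while the lowest of the 6 values fell on WT array 3 for 28 genes and on WT array 1 for 16. Gene by gene, all Runx3-/- values lay above all WT values for 24 genes, or 53.3%, beside 5.98% of tested genes, and the opposite order occurred for 0, beside 16.8%.

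**Figure D1:**
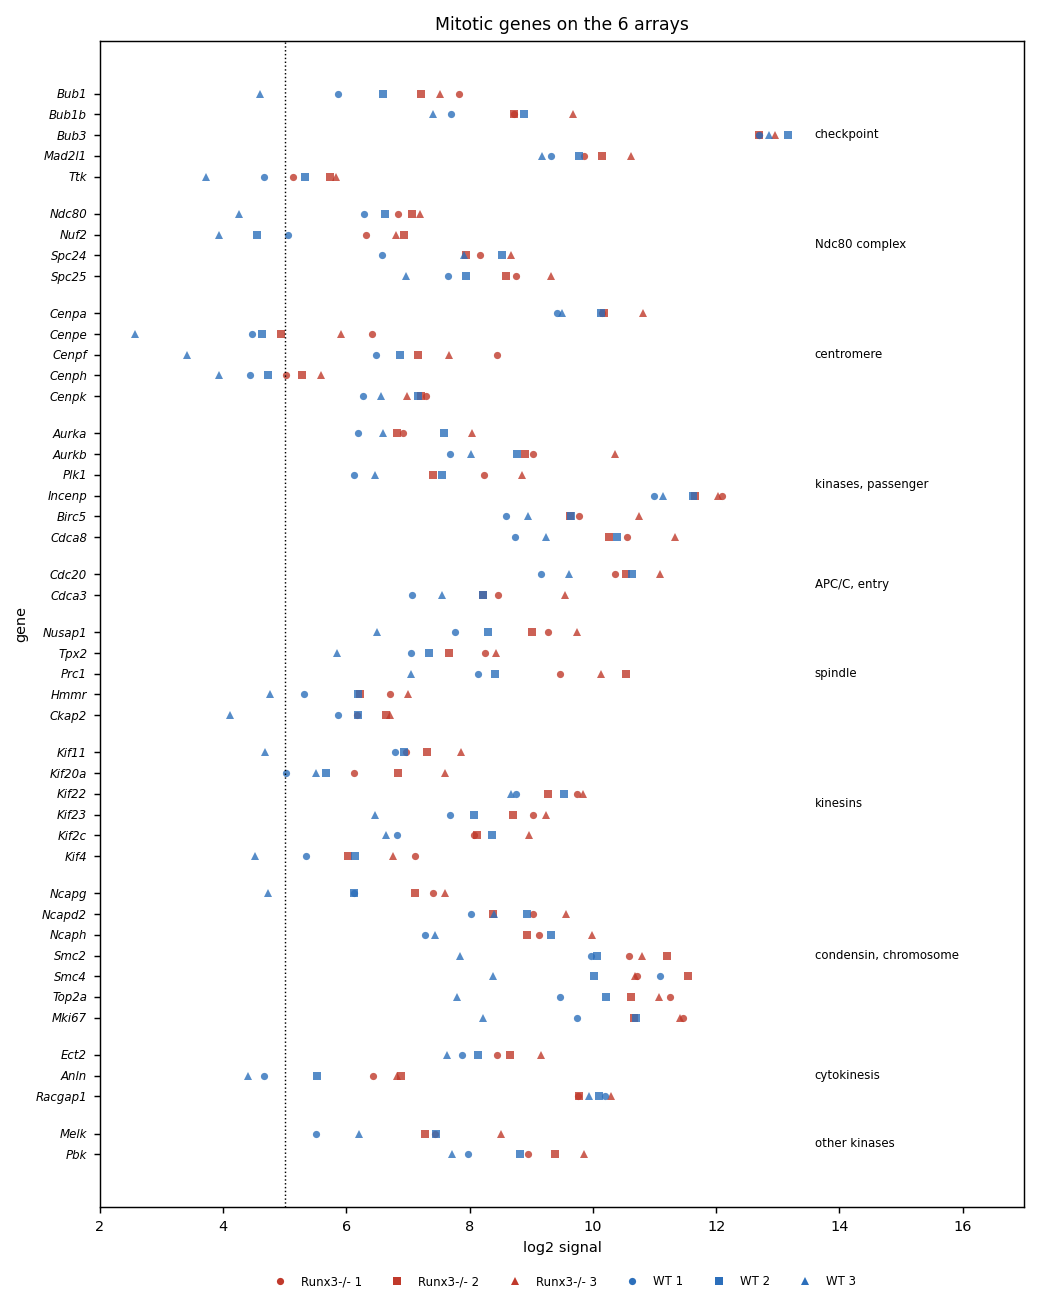
Log2 signal (x axis) of each of the 45 genes (y axis, in blocks by role) on the 3 Runx3-/- arrays (red) and the 3 WT arrays (blue), with the array number as marker shape and the background level of log2 5 as a dotted line. For 24 genes all red points lie to the right of all blue points, and the WT values are spread more widely than the Runx3-/- values for most genes.

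The WT arrays differed among themselves more than the Runx3-/- arrays did. The median SD of the 45 genes was 0.76 within WT and 0.38 within Runx3-/-, beside 0.30 and 0.28 over all tested genes. For 12 genes of cohesin subunits and loaders it was 0.68 and 0.43, so a wide WT spread was not limited to the 45. The count of higher genes depended on single arrays of either group. It was 15 without Runx3-/- array 3, 20 without WT array 3, and 39 without WT array 2, and it was also 20 when genes of any level were tested. In each of these fits 0 genes were lower.

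**Figure D2:**
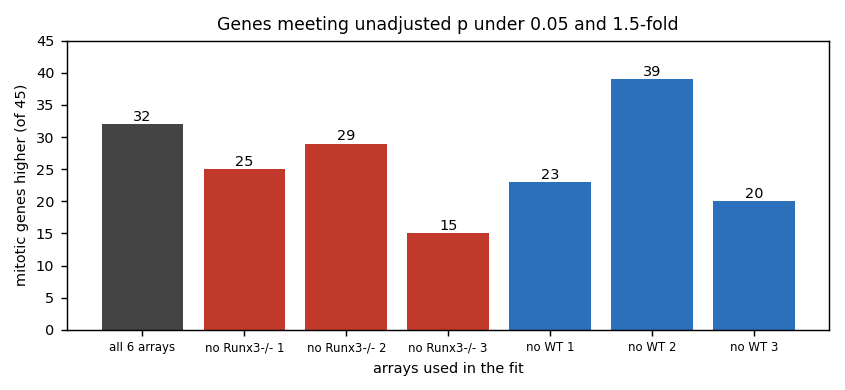
Number of the 45 genes higher in Runx3-/- cells at an unadjusted p under 0.05 and at least 1.5-fold (y axis, bars from 0) when the fit used all 6 arrays or left 1 array out (x axis). The count is 32 with all arrays and runs from 15 without Runx3-/- array 3 to 39 without WT array 2.

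Sex-linked transcripts differed between arrays, and the gene set moved with them. Xist, the RNA of the inactive X chromosome, read 11.59, 12.58 and 11.89 on Runx3-/- array 2, WT array 1 and WT array 3, and between 2.68 and 3.11 on the other arrays. The Y-linked gene Eif2s3y read 9.86, 9.65 and 9.11 where Xist was low, 3.75 and 4.28 on Runx3-/- array 2 and WT array 1, and 6.71 on WT array 3, where Xist was high as well. WT array 3 thus carried signal of both kinds, which differs from the other arrays and from what 1 mouse of either sex would be taken to give, so 1 mouse per array rests on the design text alone. The mean of the 45 genes was higher in Runx3-/- cells within both classes, by 1.31 where Xist was high (1 Runx3-/- and 2 WT arrays) and by 0.65 where it was low (2 Runx3-/- arrays and 1 WT array). With the Xist class as a covariate, 22 of the 45 genes were higher, 0 passed at 5% and the mean difference was 0.98.

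Among markers of other cells, those of basophils had the largest share of higher genes, 87.5%, beside 4.89% of all tested genes. Of 8 basophil markers 7 were higher in Runx3-/- cells, and Hdc, the histamine-forming enzyme, and Cyp11a1 passed at 5%. The log2 of their summed linear signal was 14.5 to 15.3 on Runx3-/- arrays and 12.8 to 13.1 on WT arrays. Sums of the other lists were taken the same way, so the brightest markers of a list weigh most. Of 6 tested B cell markers 2, Cd79a and Ms4a1, were higher, with sums of 9.80 to 11.2 against 8.61 to 10.2. All 6 had differences above 0, with a median of 0.97. Cd79a lay below background on all WT arrays, was tested only through its Runx3-/- values, and was at least 1.74-fold higher. The B lineage factor Pax5 stayed below background on all arrays. Of 5 tested plasma cell markers 1, Mzb1, was higher (sums 12.5 to 13.2 against 12.6 to 12.9), and Sdc1 and Tnfrsf17 stayed below background. Of 9 macrophage markers 2, Adgre1 and Cd14, were higher. The difference lay above 0 for 7 of these markers and below 0 for 2, with a median of 0.70. Their list had sums of 13.8, 12.2 and 10.3 on Runx3-/- arrays 1, 2 and 3 and of 12.6, 11.8 and 11.3 on WT arrays. Cd14 cleared background only on Runx3-/- array 1, at 5.64, and its groups overlapped. With values below background raised to it, the fold of Cd14 was 1.16, short of 1.5. Of 7 erythroid precursor markers 5, among them Klf1 and Hba-a1, stayed below background on all arrays, and Tal1 was higher. The 8 NK cell markers had sums of 16.8 to 17.1 on all arrays, with Eomes alone lower in Runx3-/- cells. The part of basophils, B lineage cells and macrophages in the levels of the mitotic genes was not tested.

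Runx3 itself read 7.76, 8.51 and 8.68 on Runx3-/- arrays and 10.11, 11.56 and 10.73 on WT arrays, a difference of -2.48 (limma adjusted p = 0.0565), with residual signal on all knockout arrays. The position of its probe set relative to the deleted part was not known here. The Gapdh control signal of the 3′ end exceeded that of the 5′ end by 2.16 to 2.54 (log2) on Runx3-/- arrays and by 3.95, 4.38 and 1.96 on WT arrays 1, 2 and 3. For actin the same difference was 0.63 to 1.23 on Runx3-/- arrays and 1.35, 2.60 and 1.01 on WT arrays. The part of RNA integrity in the levels of the mitotic genes was not tested.

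Promoter sequences are shown because many late cell cycle genes are known to share a hexamer near the transcription start, the cell cycle genes homology region (CHR), which the DREAM complex binds in resting cells, together with CCAAT boxes bound by NF-Y. RefSeq windows (build GRCm38.p6) of 300 bases, 250 before the start and 50 from it onward, were found for 38 of the 45 genes, in 43 windows. The hexamer TTTGAA, searched on both strands, occurred in 31 of the 43 windows (72.1%), compared with 17.9% of all 32851 promoter windows and 12.1% of those of tested genes. CCAAT, on both strands, occurred in 79.1% of the windows and in 37.4% of all. Both were present in 65.1% against 6.95%. A RUNX word on either strand (TGTGGT, the variant TGTGGC, the form TGCGGT or its variant TGCGGC) occurred in 51.2% against 45.2% of all. The RUNX share was 49.7% for windows of tested genes, close to that of the 45. In windows of the mitotic genes outside the set, TTTGAA occurred in 47.4% and a RUNX word in 60.3%. In those of S phase genes the shares were 17.5% and 56.1%.

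**Figure D3:**
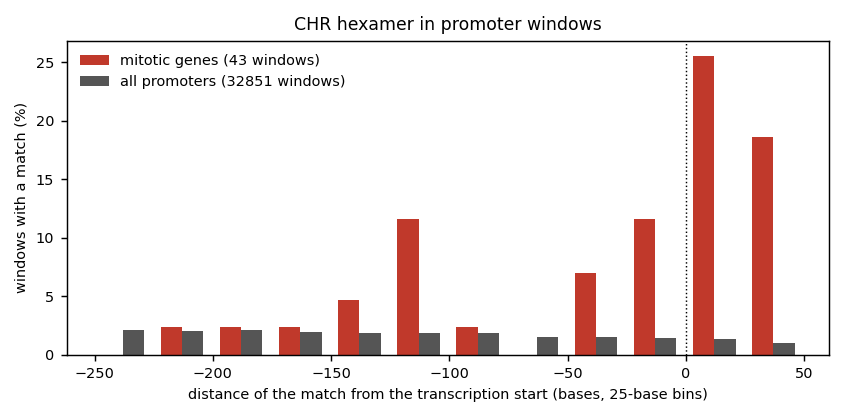
Share of promoter windows (y axis, %) with a CHR hexamer beginning in each 25-base bin of distance from the transcription start (x axis), for the 43 windows of the mitotic genes (red) and all 32851 windows (grey). The red bars are tallest just after the start, 25.6% in the first 25 bases and 18.6% in the next 25, where the grey bars are 1.31% and 0.971%.

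The windows below hold the hexamer, in capitals, with 10 bases on either side, read 5′ to 3′ on the strand that carries TTTGAA. The first 6 belong to genes that met the criterion and the last 4 to genes that did not, to show that the word is present in both.
Spc25, chr2:69206174-69206199, minus strand: cggtggagagTTTGAAattgaaagac
Plk1, chr7:122159455-122159480, plus strand: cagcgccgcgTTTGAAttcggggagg
Cenpf, chr1:189688069-189688094, minus strand: cggcgggcagTTTGAAtcgctcgtgc
Kif23, chr9:61946782-61946807, minus strand: gattggcctgTTTGAAatgcgccggg
Hmmr, chr11:40733414-40733439, minus strand: ttgaggtaaaTTTGAAttcaggcgag
Mki67, chr7:135716462-135716487, minus strand: gccgttttggTTTGAAtcgggcgggc
Cdc20, chr4:118437346-118437371, minus strand: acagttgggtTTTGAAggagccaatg
Racgap1, chr15:99651636-99651661, minus strand: ggtgcgtgatTTTGAAccggatctgg
Bub3, chr7:131560317-131560342, minus strand: attggctgatTTTGAAcgccaacggc
Ndc80, chr17:71526813-71526838, plus strand: cccaaggcggTTTGAAttttaaagtt

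The hexamer was present in genes of either response. It was found in 69.0% of the windows of genes that met the criterion and in 78.6% of those of genes that did not, Bub3 and Racgap1 among them. Counted by gene, it was found in 18 of 27 (66.7%) and 10 of 11 (90.9%), and Cenpk alone accounts for 3 windows without it. The difference between these shares was not tested. Nuf2 and Prc1, which both met the criterion, illustrate a gene without the hexamer and a gene with it. Their 200 bases before the start are given below, with CCAAT and TTTGAA in capitals. Prc1 holds both words, while the whole Nuf2 window holds neither of them and none of the RUNX words.
Nuf2, chr1:169531465-169531664, minus strand: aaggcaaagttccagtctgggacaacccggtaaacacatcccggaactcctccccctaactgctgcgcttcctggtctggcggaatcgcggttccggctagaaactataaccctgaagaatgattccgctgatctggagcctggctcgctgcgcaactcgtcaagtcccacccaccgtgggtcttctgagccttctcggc
Prc1, chr7:80294276-80294475, plus strand: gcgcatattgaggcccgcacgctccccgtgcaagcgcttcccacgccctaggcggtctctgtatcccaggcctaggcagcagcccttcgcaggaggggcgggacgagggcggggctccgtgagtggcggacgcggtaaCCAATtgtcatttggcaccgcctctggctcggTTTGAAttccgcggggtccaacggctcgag

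**Figure D4:**
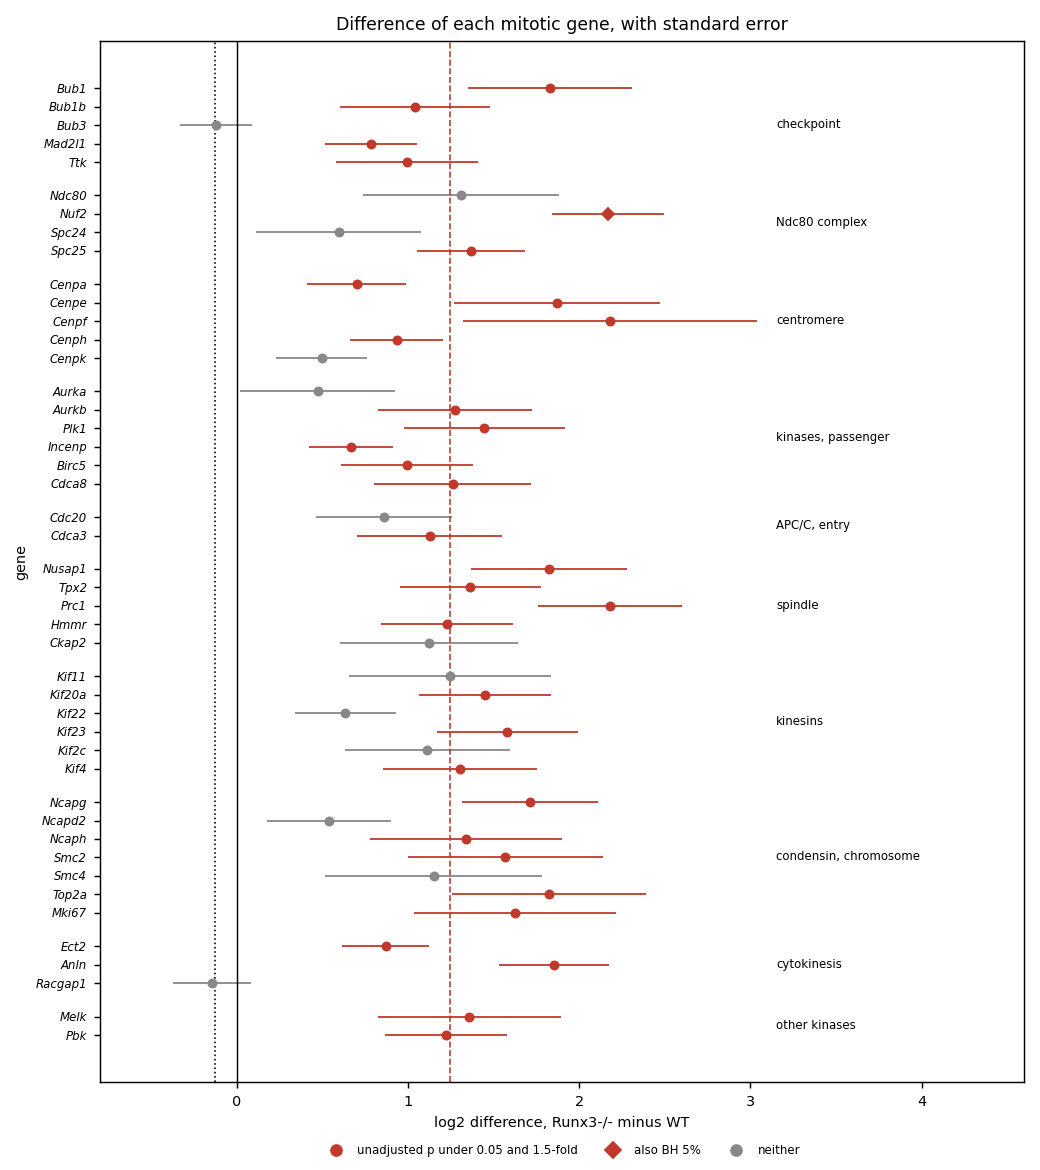
Log2 difference, Runx3-/- minus WT (x axis), with its standard error, for each of the 45 genes (y axis, in blocks by role). Red marks genes at an unadjusted p under 0.05 and 1.5-fold, the diamond is Nuf2, grey marks the others. The dashed line is the median of the 45 genes (1.25) and the dotted line that of all tested genes (-0.13).

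Of the 5 spindle checkpoint genes, 4 met the criterion. Bub1, a kinase that recruits checkpoint proteins to kinetochores, read 7.82, 7.20 and 7.52 on Runx3-/- arrays 1, 2 and 3 and 5.86, 6.59 and 4.59 on WT arrays 1, 2 and 3, the order used for every gene that follows. All its Runx3-/- values lay above WT, the difference was 1.83 ± 0.48 (SE), at least 3.24-fold since WT array 3 was below background, and the limma adjusted p was 0.153. Mad2l1, the protein that holds Cdc20 inactive, read 9.86, 10.14 and 10.62 against 9.33, 9.77 and 9.18. These groups were also apart, by a narrow margin, with a difference of 0.78 ± 0.27. Bub1b, a subunit of the mitotic checkpoint complex, read 8.71, 8.72 and 9.67 against 7.70, 8.89 and 7.41, and WT array 2 reached above the lower Runx3-/- arrays. The apical checkpoint kinase Ttk was dim, at 5.13, 5.74 and 5.83 against 4.66, 5.33 and 3.73, and its groups overlapped. With values below background raised to it, the fold of Ttk was 1.37 and the criterion was not met. Bub3, the shared partner of Bub1 and Bub1b, gave a bright signal of 12.70, 12.70 and 12.95 against 12.69, 13.16 and 12.86. Its difference of -0.12 was within the spread of the arrays, and its further tested probe sets gave -0.41, 0.57 and 0.24.

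The 4 subunits of the Ndc80 complex, the rod that grips the microtubule, differed in size of response. Nuf2 rose from 5.06, 4.55 and 3.93 in WT cells to 6.32, 6.93 and 6.80 in Runx3-/- cells. The groups were 1.26 apart at their closest, the difference was 2.17 ± 0.33 (SE), at least 3.17-fold, and the limma adjusted p of 0.0436 ranged from 0.0128 to 0.181 over the alternative settings. Spc25 read 8.76, 8.59 and 9.32 against 7.65, 7.95 and 6.97, again without overlap, a difference of 1.37 ± 0.32 (2.58-fold, limma adjusted p = 0.127). Ndc80 itself read 6.84, 7.07 and 7.20 against 6.29, 6.63 and 4.26. Its groups did not overlap, but WT array 3 alone was far below the others and the unadjusted limma p was 0.0538. Spc24, the partner of Spc25, read 8.17, 7.94 and 8.68 against 6.58, 8.52 and 7.90, with overlapping groups and a difference of 0.60.

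Among the 5 centromere genes 4 met the criterion, most of them at low signal. Cenpa, the histone variant that marks centromeres, read 10.15, 10.19 and 10.82 against 9.42, 10.13 and 9.50, so that WT array 2 almost touched the Runx3-/- values. Cenpf, a large kinetochore and matrix protein, read 8.45, 7.17 and 7.67 against 6.48, 6.86 and 3.41. Its difference of 2.18 was among the largest, but its SE of 0.86 was the largest of the 45, because of WT array 3. The kinetochore motor Cenpe read 6.41, 4.95 and 5.91 against 4.46, 4.63 and 2.57, and Cenph, an inner kinetochore subunit, read 5.03, 5.28 and 5.59 against 4.44, 4.73 and 3.93. Both were below background on all WT arrays and were tested only through their Runx3-/- values, and neither met the criterion once values below background were raised to it. Cenpk, which sits beside Cenph, read 7.29, 7.20 and 6.98 against 6.28, 7.16 and 6.56 and did not meet the criterion.

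Mitotic kinases and the chromosomal passenger complex, which corrects wrong microtubule attachments, were higher for 5 of 6 genes, with WT array 2 close to the Runx3-/- arrays in each. The kinase Aurkb read 9.03, 8.90 and 10.37 against 7.68, 8.76 and 8.02 (difference 1.28 ± 0.45). Its scaffold Incenp read 12.09, 11.65 and 12.03 against 11.00, 11.63 and 11.14. Both were just free of overlap, but a second bright probe set of Incenp gave a difference of 0.35 that did not meet the criterion. Birc5 (survivin) read 9.78, 9.63 and 10.74 against 8.58, 9.64 and 8.94, and Cdca8 (borealin) read 10.56, 10.27 and 11.33 against 8.74, 10.38 and 9.24, so in both WT array 2 passed Runx3-/- array 2. Further probe sets of Cdca8 gave differences of 1.25 and 1.16 beside 1.26 for its brightest. Plk1, which acts from mitotic entry to cytokinesis, read 8.23, 7.41 and 8.84 against 6.12, 7.55 and 6.47, with a difference of 1.44 ± 0.47. Aurka, the kinase of the spindle poles, read 6.92, 6.82 and 8.04 against 6.18, 7.59 and 6.59, and its difference of 0.47 did not exceed the spread.

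Cdc20 and Cdca3, which bear on the APC/C and on mitotic entry, were both highest on Runx3-/- array 3 and lowest on WT array 1. Cdca3 read 8.47, 8.21 and 9.54 against 7.07, 8.22 and 7.56 and met the criterion (difference 1.13 ± 0.42), with WT array 2 level with Runx3-/- array 2. Cdc20, the activator that the checkpoint restrains, read 10.36, 10.54 and 11.09 against 9.16, 10.64 and 9.61. Its groups overlapped and the unadjusted limma p of the difference of 0.86 was 0.0651.

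Spindle assembly genes included the largest difference of the 45. Prc1, which bundles antiparallel microtubules in the spindle midzone, read 9.46, 10.54 and 10.14 against 8.14, 8.41 and 7.05. The groups were 1.05 apart at their closest, the difference was 2.18 ± 0.42 (4.53-fold, limma adjusted p = 0.0794), and a second probe set gave 2.08. Nusap1, a microtubule stabiliser near chromosomes, read 9.27, 9.01 and 9.74 against 7.76, 8.29 and 6.49, and Tpx2, the activator of Aurora A, read 8.25, 7.67 and 8.43 against 7.05, 7.34 and 5.85. Neither overlapped between groups, with differences of 1.82 ± 0.45 (limma adjusted p = 0.138) and 1.36 ± 0.41. Hmmr, a spindle microtubule-binding protein, read 6.71, 6.23 and 7.003 against 5.32, 6.18 and 4.76 and was just free of overlap. Ckap2, another microtubule-associated protein, read 6.17, 6.65 and 6.71 against 5.86, 6.19 and 4.11, and its unadjusted limma p was 0.0639.

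Of the 6 mitotic kinesins, 3 met the criterion. Kif23, the motor of centralspindlin, read 9.02, 8.70 and 9.24 against 7.68, 8.07 and 6.46, without overlap (difference 1.58 ± 0.41, limma adjusted p = 0.150). Kif20a, which carries passenger proteins to the midzone, read 6.12, 6.83 and 7.60 against 5.02, 5.66 and 5.51, likewise without overlap (1.45 ± 0.38, limma adjusted p = 0.155). In contrast to most of the 45 genes, Kif20a was lowest on WT array 1. The X-linked chromokinesin Kif4 read 7.11, 6.03 and 6.76 against 5.34, 6.14 and 4.51, with overlap at WT array 2. Kif11, which pushes the spindle poles apart, had a difference of 1.25 for its brightest probe set, below the criterion, and 1.73 for a dimmer one that met it. Kif22 and the microtubule depolymerase Kif2c differed by 0.63 and 1.11, with overlapping groups. For Kif22, too, a dimmer probe set met the criterion, at 0.94.

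Condensin, the ring that compacts mitotic chromosomes, was represented by 5 subunits, of which 3 met the criterion. Ncapg read 7.41, 7.11 and 7.60 against 6.13, 6.12 and 4.73, with a gap of 0.99 between the groups (difference 1.71 ± 0.39, limma adjusted p = 0.127) and 1.90 for a second probe set. The ATPase subunit Smc2 read 10.59, 11.19 and 10.80 against 9.97, 10.07 and 7.85, without overlap. Its further tested probe sets gave 1.36, 0.11 and 1.41, with overlapping groups, and did not meet the criterion. Ncaph read 9.12, 8.93 and 9.98 against 7.28, 9.31 and 7.43, with overlap at WT array 2. A second probe set of Ncaph gave 1.16 and did not meet the criterion. Smc4, the partner of Smc2, read 10.71, 11.54 and 10.68 against 11.09, 10.01 and 8.38, and Ncapd2 read 9.03, 8.38 and 9.56 against 8.03, 8.93 and 8.39; neither met the criterion. The DNA-untangling enzyme Top2a read 11.25, 10.62 and 11.07 against 9.47, 10.21 and 7.79, a 3.53-fold difference without overlap (limma adjusted p = 0.201). Mki67, the chromosome-coating protein known as the proliferation antigen, read 11.46, 10.66 and 11.42 against 9.75, 10.70 and 8.21, with WT array 2 level with Runx3-/- array 2.

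In cytokinesis, Anln and Ect2 met the criterion and Racgap1 did not. Anln, the scaffold of the contractile ring, read 6.43, 6.89 and 6.82 against 4.66, 5.52 and 4.40. The gap between groups was 0.91 and the difference 1.85 ± 0.32, at least 2.91-fold (limma adjusted p = 0.0636). Ect2, the exchange factor that activates RhoA at the midzone, read 8.45, 8.65 and 9.15 against 7.88, 8.13 and 7.63, again without overlap (0.87 ± 0.26). Racgap1, which forms centralspindlin with Kif23 and recruits Ect2, read 9.75, 9.77 and 10.29 against 10.20, 10.10 and 9.94, so its groups overlapped while those of Kif23 and Ect2 did not. Its second tested probe set gave -0.41.

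The kinases Pbk and Melk, both known from dividing cells, met the criterion. Pbk read 8.95, 9.38 and 9.85 against 7.98, 8.82 and 7.72, just free of overlap (1.22 ± 0.35). Melk read 7.44, 7.28 and 8.52 against 5.50, 7.45 and 6.20, and WT array 2 lay within the Runx3-/- range.

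Differences were smaller where the WT signal was high. Of the 15 genes with the dimmest WT signal 12 met the criterion (median difference 1.36), of the middle 15, 11 did (1.28), and of the brightest 15, 9 did (0.86). The 12 include Cenpe, Cenph and Ttk, which did not meet it once values below background were raised to background. Signal depends on the probe as well as on RNA, and level and difference share the WT arrays, so this is a description of the set. Of the 32 genes that met the criterion, 13 did so under every alternative setting in which they were tested: Anln, Bub1, Ect2, Kif20a, Kif23, Ncapg, Nuf2, Nusap1, Pbk, Prc1, Spc25, Top2a and Tpx2.

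Other genes of the cell cycle were read for comparison, from lists that hold none of the 45. Of 74 tested mitotic genes outside the set 29 were higher and 0 lower (median 0.78). Cenpm, an inner kinetochore subunit, and Depdc1a passed at 5% (limma adjusted p = 0.0442 and 0.0444). However, both lay below background on all WT arrays and were tested only through their Runx3-/- values (at least 1.63-fold and 2.11-fold). Next were the condensin II subunit Ncapg2 (6.12, 6.78 and 5.54 in WT cells, 7.74, 8.28 and 8.37 in Runx3-/- cells), the cohesin protector Sgo2a, the abscission protein Cep55 and the centriole protein Stil. Cep55 was 3.02-fold higher, Stil at least 2.75-fold, and Sgo2a, below background on all WT arrays and tested only through its Runx3-/- values, at least 1.67-fold. Foxm1, the activator of many late cell cycle genes, was higher by 1.33 (limma adjusted p = 0.155), while Cdk1, the kinase that drives mitotic entry, differed by 0.87 with overlapping groups.

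S phase genes differed less: 12 of 57 were higher and 0 lower, with a median of 0.38. The 6 with the smallest p were Clspn, Ccne2, Gins2, Tipin, E2f8 and Rad51ap1. Of these Ccne2 lay below background on all WT arrays and was tested only through its Runx3-/- values (at least 2.27-fold), and the others differed by 0.84 to 1.75. Pcna, the replication clamp, was bright on all arrays and read 13.38, 13.94 and 13.93 against 13.59, 12.85 and 13.70, a difference of 0.37 within the spread. Without Runx3-/- array 3 the count for other mitotic genes was 16, without WT array 3 it was 19, and the S phase count was 19 without WT array 2.

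The APC/C subunits, which are present throughout the cycle, did not follow the mitotic genes. At the same criterion 0 of 14 were higher, beside 4.89% of all tested genes, and their median was -0.09, close to that of all tested genes. Of 12 cohesin subunits and loaders 1, the S phase acetyltransferase Esco2, met the criterion (8.33%, median 0.37). Esco2 lay below background on all WT arrays and on Runx3-/- array 1, and with such values raised to background its fold was at least 1.47, short of the 1.5-fold asked for. Among 21 tested genes of quiescence and the DREAM complex 1 met the criterion, or 4.76%, about the share of all tested genes. It was the cyclin-dependent kinase inhibitor Cdkn1a, higher in Runx3-/- cells at 8.48, 9.26 and 8.03 against 7.97, 6.70 and 7.59.

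**Figure D5:**
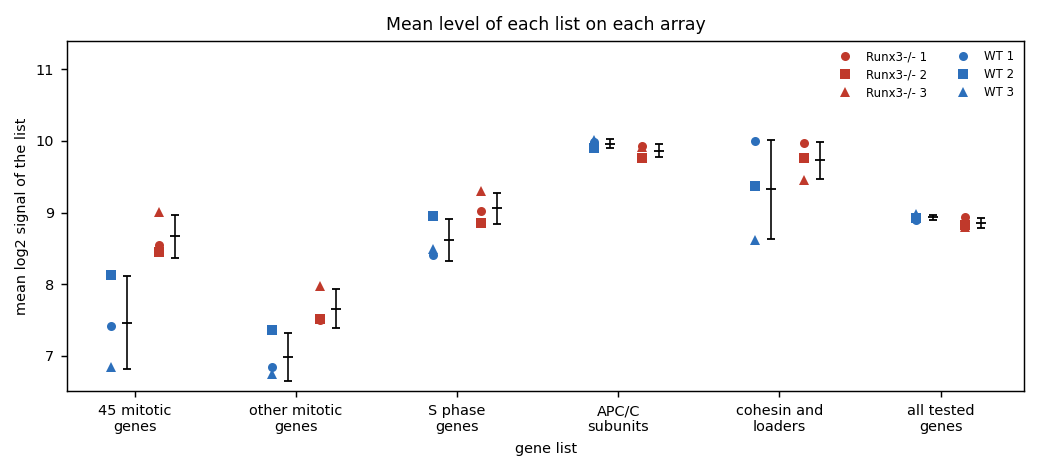
Mean log2 signal (y axis) of the 45 mitotic genes and of 5 other groups of genes (x axis) on each array, Runx3-/- in red and WT in blue, with group mean and SD (n = 3) as black bars. The 45 genes lie between 8.44 and 9.01 in Runx3-/- cells and between 6.84 and 8.13 in WT cells. The cohesin subunits and loaders also vary, between 9.45 and 9.97 in Runx3-/- cells and between 8.62 and 9.99 in WT cells. The APC/C subunits and all tested genes vary little between arrays.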

How the data were processed

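Splenic DX5+ NK cell RNA of 3 Runx3-/- and 3 WT mice was hybridised to 6 arrays, 1 per mouse according to the design text. The deposited log2 values had been made by the authors with GCRMA in Partek, which corrects background by probe sequence and normalizes between arrays. Software versions were not stated. Array intensities were not used. Of 45101 probe sets, 34945 had a single symbol in the platform annotation. Each gene was read from its brightest probe set by mean, and 9545 of 18193 genes reached log2 5 on at least 1 array and were tested. The study states a background filter but no level. Genotypes were compared with limma (version 3.58.1, R 4.3.3; lmFit and eBayes, no covariate) with Benjamini-Hochberg adjustment over all tested genes. The looser criterion, an unadjusted p under 0.05 and 1.5-fold, follows the study's methods. "At least" marks a fold for which values under log2 5 were set to 5. The 45 genes, the other lists and the markers were chosen with earlier results of these data known. Every one of the 45 was to be named. Array values were to be given for those that met the criterion, and of other lists up to 6 with the smallest p, with Cdk1, Pcna and Foxm1. NK, B, plasma, T, basophil, macrophage, neutrophil, dendritic, erythroid and platelet markers were counted the same way. The fit was tested on simulated data with independent noise for each gene. That simulation does not bear on counts among genes that move together from array to array. With 3 arrays a group, their number limits the precision. Any pair of arrays shared at most 0.0111% of values, so none was a copy.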

Additional observations from a re-analysis of the deposited data

How the results depend on the processing

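Over the alternatives the median difference of the 45 genes stayed between 0.90 and 1.58, their mean difference between 0.89 and 1.54, and 0 of them were lower. The count of higher genes, 32, became 20 when genes of any level were tested and 15 to 39 with 1 array left out (15 without Runx3-/- array 3, 20 without WT array 3). Genes passing at 5%, 1 as reported, numbered 0 without a filter on level, with the mean of all probe sets, with every probe set tested, with a replicate block and with the Xist class as a covariate (chosen after seeing the data), 2 with a variance trend and robust priors, 3 with array weights, and 0 to 1 with 1 array left out, the 1 only without WT array 1. Other mitotic genes higher ran from 16 to 38 and S phase genes from 8 to 19 with 1 array left out. Of single genes that met the criterion, 494 of the refits kept it, 104 lost it and 0 reversed. The cause of these changes was not tested. Residual correlations of same-numbered arrays were 0.065, -0.186 and 0.154 over 9545 genes. Those of differently numbered arrays ran from -0.273 to 0.218. With residuals centred within 3 arrays a group, these values cannot decide whether the numbers pair the mice. The replicate block gave 29 higher genes, and 0 genes of the array at 5%, with 1390 at an unadjusted limma p under 0.05.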

Other observations

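The log2 of the summed linear signal of 7 neutrophil markers was 11.9, 8.80 and 8.29 on Runx3-/- arrays. It was 11.2, 12.0 and 8.09 on WT arrays. Camp was lower in Runx3-/- cells at the criterion, but lay below background on all Runx3-/- arrays and on WT array 3. Itgax, listed as a dendritic cell marker and also made by NK cells, was lower (9.91, 8.63 and 9.30 against 10.58, 11.84 and 11.41), and Cx3cr1, a marker of mature NK cells, was higher (11.47, 12.52 and 12.46 against 10.84, 9.54 and 10.06). Of the 6 mature NK cell markers 5 had differences above 0, with a median of 0.66, and Cx3cr1 alone met the criterion. Of the platelet markers Gp1bb was lower, and of 5 tested T cell markers and 5 immature NK cell markers 0 met the criterion in either direction.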
